A study of Rattus norvegicus with 48 samples.

Results

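Small RNA of the proximal tubule was compared with that of the glomerulus in the rat kidney. The comparison used all 188 mature miRNAs of the deposited table in 3 proximal tubule libraries (rats 1, 2 and 3) and 2 glomerulus libraries (rats 1 and 3). Each library was run on 4 flow cells, so these are 20 of the 48 samples of the series, 12 from the proximal tubule and 8 from the glomerulus. Membership followed the labelled kidney region and not any measured value. A glomerulus library that the submitters marked as removed from their own work is not analysed here.

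All rats were untreated male Sprague Dawley animals of 6 months with no transgene or agent, and every library came from frozen kidney cut at 8 µm. Laser capture collected the proximal tubule from sections stained by fluorescence with an antibody against glutathione-s-transferase, and the glomerulus from sections with a histochemical stain seen by light microscopy. Region and staining therefore changed together in both rats and cannot be told apart. The series also holds thick ascending limb and collecting duct, each in 3 libraries from the same rats, and serves to find urinary miRNAs that point to a nephron segment.

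A miRNA is a short RNA that pairs with messenger RNAs, mainly through its seed (bases 2 to 8), and lowers their translation and stability. The glomerulus is the filter of the nephron, a tuft of capillaries held by mesangial cells and wrapped by podocytes, whereas the proximal tubule is an epithelium that reabsorbs most of the filtrate. A capture of either region contains several cell types, and in such bulk samples fewer cells of a type and less RNA per cell cannot be told apart.

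The sequences of the miRNAs on which the comparison turns are printed first, 5′ to 3′, with the seed in capitals. They are RefSeq entries on the rat build GRCr8, where 172 of the 188 miRNAs were found. Those higher in the proximal tubule are the following. miR-192-5p and one copy of miR-194-5p lie side by side on chromosome 1 (212994232 to 212994252 and 212994038 to 212994059, plus strand), and the other copy of miR-194-5p lies within Iars2 on chromosome 13. miR-182 (chromosome 4, 59752249 to 59752273, minus strand) and miR-3553 (59756105 to 59756127, plus strand) lie outside annotated genes at the locus of miR-183, miR-96 and miR-182. miR-203a-3p (137020756 to 137020777, plus strand) and miR-203b-3p (137020716 to 137020737, minus strand) lie on opposite strands of 1 locus on chromosome 6. miR-411-5p (134544604 to 134544624) and miR-541-5p (134578434 to 134578458) lie on the plus strand of chromosome 6 in the imprinted Dlk1-Dio3 region. miR-375-3p overlaps Cryba2 on chromosome 9 (83906591 to 83906612), miR-672-5p lies within Nexmif on chromosome X (73192351 to 73192373) and miR-141-3p lies on chromosome 4 (159209540 to 159209561), each on the minus strand.
miR-192-5p: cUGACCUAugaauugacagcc
miR-194-5p: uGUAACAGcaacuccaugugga
miR-182: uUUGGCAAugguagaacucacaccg
miR-3553: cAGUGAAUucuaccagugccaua
miR-203a-3p: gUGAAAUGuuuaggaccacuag
miR-203b-3p: uUGAACUGuuaagaaccacugg
miR-411-5p: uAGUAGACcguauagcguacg
miR-541-5p: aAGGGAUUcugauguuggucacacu
miR-375-3p: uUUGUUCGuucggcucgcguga
miR-672-5p: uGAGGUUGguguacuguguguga
miR-141-3p: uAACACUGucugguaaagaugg

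All 7 miRNAs that were lower in the proximal tubule are printed next, since most of them come from clusters or share a seed. Both arms of miR-126a lie within Egfl7 on chromosome 3 (29813182 to 29813240, plus strand). miR-23b-3p (1819405 to 1819425) and miR-27b-3p (1819163 to 1819183) lie within Aopep on the minus strand of chromosome 17, and miR-23a-3p lies outside annotated genes on chromosome 19 (40859778 to 40859798, minus strand). miR-351-5p (137725157 to 137725181) and miR-450a-5p (137720985 to 137721006) are neighbours on the minus strand of chromosome X. miR-23a-3p and miR-23b-3p carry the same seed, UCACAUU, which differs from the UCACAGU of miR-27b-3p.
miR-126a-5p: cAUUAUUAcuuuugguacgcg
miR-126a-3p: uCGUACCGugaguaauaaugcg
miR-23a-3p: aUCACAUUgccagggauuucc
miR-23b-3p: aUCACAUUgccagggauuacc
miR-27b-3p: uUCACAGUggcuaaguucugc
miR-351-5p: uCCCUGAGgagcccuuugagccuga
miR-450a-5p: uUUUGCGAuguguuccuaaugu

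Values are the authors' normalized values, given per library as the mean of its 4 runs. The reads behind the 188 miRNAs, estimated from the steps between low values, came to 544752, 914254 and 241314 in the proximal tubule of rats 1, 2 and 3, and to 807909 and 147996 in the glomerulus of rats 1 and 3. The shallow glomerulus library of rat 3 also stood apart in its summed value, 77457, against 165055 in rat 1 and 149060 to 210783 in the proximal tubule. It was below rat 1 for 138 of 188 miRNAs, with a median log2 gap of 1.04, and had 51 miRNAs at 0 in all runs against 30 in rat 1. Over the 50 miRNAs with a mean of at least 100 in both regions, rats of 1 region spread by a median SD of 0.85 (log2) for the glomerulus and 0.27 for the proximal tubule, and runs of 1 library by 0.16 and 0.13.

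By limma with Benjamini-Hochberg adjustment, 33 of 188 miRNAs (17.6%) differed between the regions, 26 higher in the proximal tubule (13.8%) and 7 lower (3.72%). At an unadjusted p below 0.05 there were 57. On the averaged log2 scale the libraries of the regions did not overlap for all 33, as for 79 of 188 miRNAs (42%), 56 with the proximal tubule above (29.8%) and 23 with it below (12.2%). Because these libraries did not overlap, the same sign in rat 1 and in rat 3 was given for each of the 33. The sign was kept under each of the 28 alternative settings that tested the miRNA, which reuse the same libraries. The balance of the directions did depend on the scaling between libraries. As deposited, the median log2 difference over all miRNAs was 0.77, or −0.07 in rat 1 and 1.54 in rat 3. After scaling by the median of ratios the median was 0.24 and the calls were 29 higher and 22 lower. Scaling to the same total gave a median of 0.24 with 29 higher and 21 lower, and quantiles gave −0.04 with 21 higher and 19 lower. The share of calls that were higher was 78.8% as deposited and 56.9%, 58% and 52.5% under these scalings. Every difference below is on the deposited scale, on which the median miRNA stood 0.77 higher in the proximal tubule. Leaving out the rat 1 glomerulus library gave 70 higher and 3 lower calls, leaving out the rat 3 glomerulus library 15 and 12, and leaving out the rat 3 proximal tubule library 16 and 4. The fit covered all 11 libraries, so its spread also came from the thick ascending limb and the collecting duct. It let miRNAs of like level share 1 variance, and the very small p-values below rest on both. In the 5 libraries of the compared regions alone, with the rat as a block, limma kept 5 of the 33 calls. There miR-192-5p was at an adjusted p of 0.088.

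**Figure D1:**
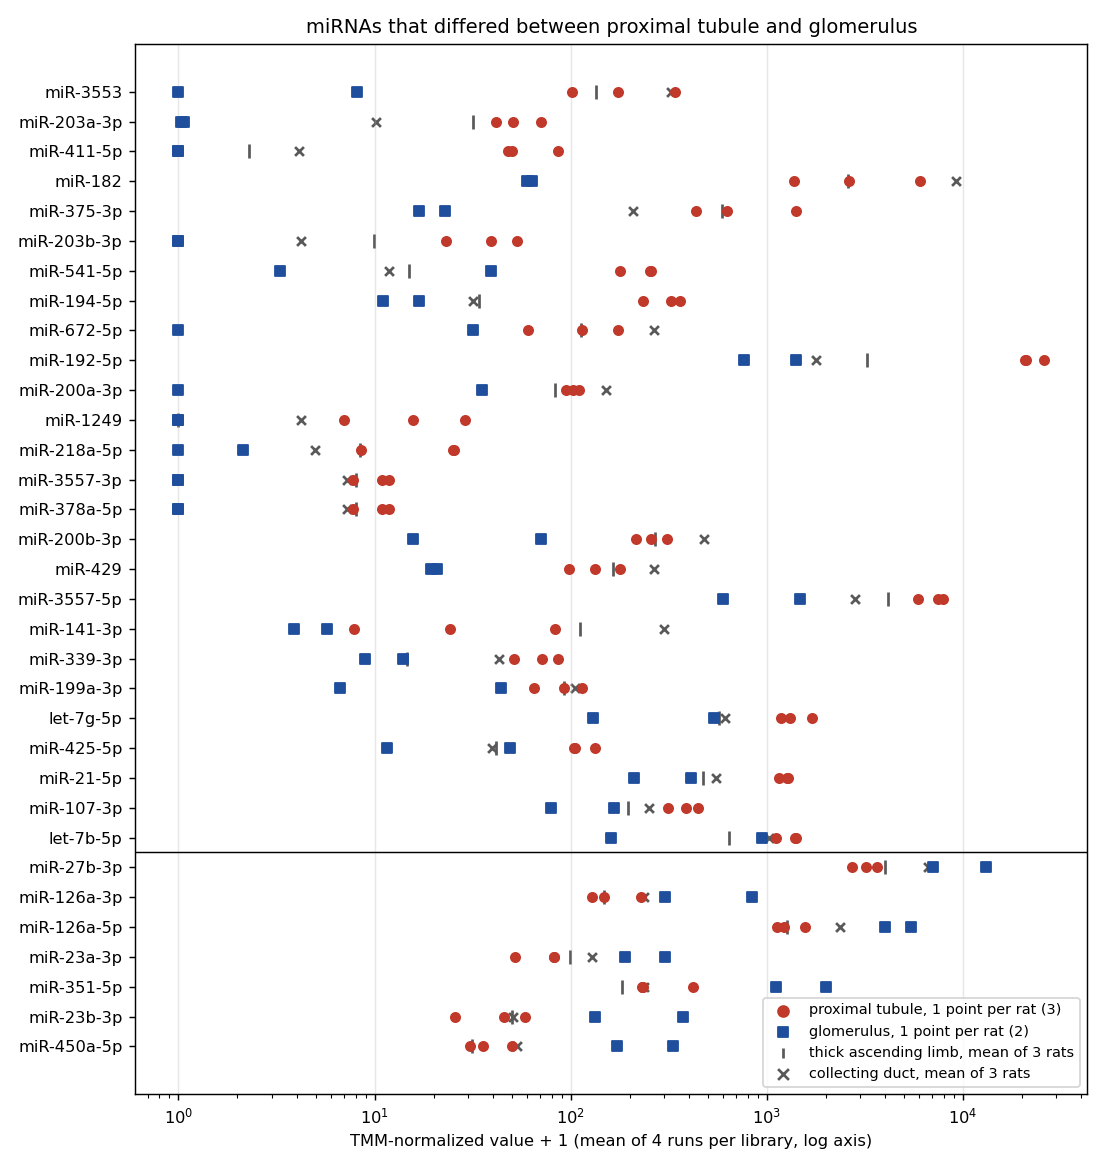
Values of the 33 miRNAs that passed the test, as TMM-normalized value + 1 on a log axis, with 1 circle per proximal tubule rat and 1 square per glomerulus rat, and ticks and crosses for the means of the thick ascending limb and the collecting duct. Above the line are the 26 higher and below it the 7 lower in the proximal tubule; circles and squares overlap in no row.

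**Figure D2:**
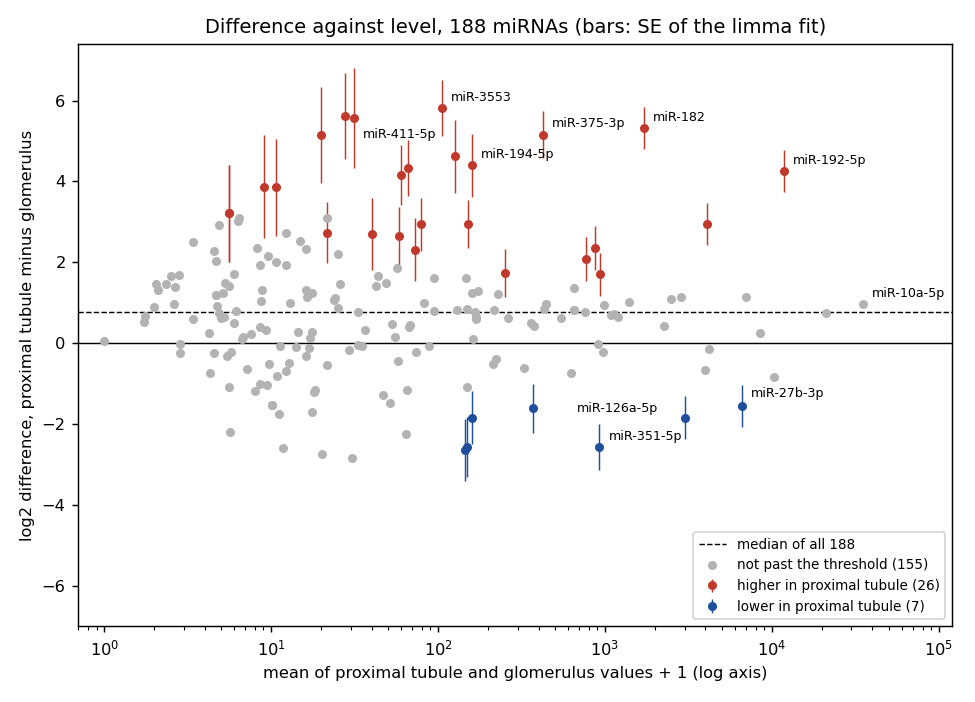
The log2 difference (proximal tubule minus glomerulus) of all 188 miRNAs against their mean value + 1 in both regions (log axis), with SE bars from the limma fit for those past the threshold. The dashed line is the median of all 188, 0.77, above which all 26 higher calls lie.

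The proximal tubule was rich in miR-192-5p, and its cluster partner miR-194-5p was higher by a similar factor. Both are known as abundant miRNAs of kidney and gut epithelium. miR-192-5p had values of 21065, 26006 and 20807 in the proximal tubule of rats 1, 2 and 3, against 1414 and 761 in the glomerulus of rats 1 and 3. It was the third most abundant miRNA of the proximal tubule, with 13.0% ± 2.73 of the summed value (SD, n = 3), and ranked 15 in the glomerulus, with 0.920% ± 0.0886 (SD, n = 2). The lowest proximal tubule library was far above the highest glomerulus library, and the fitted difference was 19.2-fold (log2 4.26 ± 0.52, SE, adjusted p = 5.5e-14). For miR-194-5p the values were 233, 360 and 323.5 against 10.1 and 15.8, again without overlap, and 21.1-fold higher (log2 4.40 ± 0.78, adjusted p = 5.6e-07). Both rats gave similar differences for miR-194-5p, 4.47 in rat 1 and 4.30 in rat 3, and for miR-192-5p they were 3.90 and 4.77. Neither call was lost when any 1 library was left out. Against the other tubules, where the same fit called 15 of 188 miRNAs for the thick ascending limb (7.98%) and 19 for the collecting duct (10.1%) with the same proximal tubule libraries, both were also above the thick ascending limb (log2 2.84 and 3.24, adjusted p = 1.1e-07 and 0.0001) and the collecting duct (3.69 and 3.33, adjusted p = 2.2e-13 and 2.6e-05).

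At the locus of miR-183, miR-96 and miR-182, a cluster known from sensory and other epithelia, 2 of 3 measured members were higher. The share of all miRNAs that were higher was 13.8%. miR-182 had 1385, 2613 and 6072 in the proximal tubule against 58.9 and 62.6 in the glomerulus. The proximal tubule values spread widely between rats but stayed clear of the glomerulus, at a fitted log2 difference of 5.32 ± 0.52 (adjusted p = 7.2e-21). miR-3553 had 101, 174 and 342 against 7.15 and 0, a log2 difference of 5.82 ± 0.69 (adjusted p = 6.5e-15) that became 3.83 without the glomerulus library of rat 3, where it was at 0. The remaining member, miR-96-5p, had 0, 20.8 and 5.15 against 0 and 0 and did not pass (log2 1.49 ± 1.21, adjusted p = 0.41). Neither miR-182 nor miR-3553 passed against the thick ascending limb, where their differences were 0.14 and 0.48 (adjusted p = 0.91 and 0.79), and miR-182 was lower than in the collecting duct (log2 −1.54, adjusted p = 0.0082).

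miR-203a-3p and miR-203b-3p, from opposite strands of a locus known from skin epithelium, were at or below the value of 3 reads in the glomerulus. miR-203a-3p had 40.7, 50.1 and 69.2 in the proximal tubule against 0.0323 and 0.0735, both under that floor (0.445 over the group), and the fitted log2 difference was 5.62 ± 1.06 (adjusted p = 3.3e-06). miR-203b-3p had 22.1, 38.4 and 52.5 and was at 0 in all glomerulus runs, which puts its mean at least 84.8-fold above the 3-read floor (adjusted p = 0.00019). Such floors cover counting error only. miR-375-3p, known from pancreatic islets and other endocrine cells, was higher at 433.9, 625 and 1417 against 15.8 and 21.9 (log2 5.16 ± 0.59, adjusted p = 8.8e-16). All 3 calls held when any 1 library was left out. None of them passed against the thick ascending limb, with log2 differences of 0.96, 2.50 and 0.33 (adjusted p = 0.71, 0.12 and 0.81), and all were above the collecting duct by 3.19, 3.41 and 1.85 (adjusted p = 0.008, 0.011 and 0.0057).

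Of the miR-200 family, the set of epithelial miRNAs known to hold back the mesenchymal state, 4 of 5 measured members were higher and 0 lower. Over all miRNAs, 13.8% were higher and 3.72% lower. miR-200b-3p had 255, 214.7 and 310 in the proximal tubule and 69.3 and 14.7 in the glomerulus, with a difference of 2.95 ± 0.60 (adjusted p = 2e-05). The values of miR-429 were 132, 97.6 and 178 against 19.8 and 18.4, a difference of 2.95 ± 0.66 (adjusted p = 0.00011). These miRNAs were clearly present in glomerular captures, at levels below every proximal tubule library. miR-200a-3p had 93.2, 110 and 102 against 34.1 and 0. Its log2 difference of 4.16 ± 0.74 (adjusted p = 5.6e-07) came mostly from rat 3, with 1.42 within rat 1 and 6.67 within rat 3, and became 1.58 (adjusted p = 0.097) without the rat 3 glomerulus library and 6.75 without that of rat 1. miR-200b-3p likewise went to 1.91 without the rat 3 glomerulus library, where the call remained. miR-141-3p differed most between proximal tubule rats, with 23.4, 6.85 and 81.9 against 4.71 and 2.89, and its call (log2 2.74 ± 0.76, adjusted p = 0.0035) ended when the rat 3 proximal tubule library was left out (1.74, adjusted p = 0.26). Among tubules, miR-141-3p was lower in the proximal tubule than in the thick ascending limb (log2 −2.09, adjusted p = 0.03) and the collecting duct (−3.54, adjusted p = 3.8e-06). The other 3 called members differed from those segments by −0.98 to 0.45, with adjusted p from 0.28 to 0.98.

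From the Dlk1-Dio3 region, a large cluster expressed from the maternal chromosome, 2 of 5 measured miRNAs were higher, against 13.8% of all miRNAs. The median log2 difference was 3.09, the value of miR-409b, a row on the minus strand that is taken up with the antisense rows below. miR-411-5p had 85.7, 47.0 and 49.2 in the proximal tubule and was at 0 in both glomerulus libraries, at least 136.4-fold above the floor (adjusted p = 0.00011). For miR-541-5p the values were 257, 253 and 178 against 38.1 and 2.28, a log2 difference of 4.62 ± 0.91 (adjusted p = 8.6e-06). The glomerulus libraries thus disagreed on the size for miR-541-5p, with 2.76 in rat 1 and 6.25 in rat 3, and without the rat 3 glomerulus library it was 2.24 (adjusted p = 0.097), without that of rat 1 6.999. Both stood above the thick ascending limb (log2 4.98 and 4.35, adjusted p = 0.00016 and 3.9e-06) and the collecting duct (4.68 and 4.38, adjusted p = 0.0003 and 1.6e-06). miR-409b had 44.9, 35.5 and 24.7 against 12.02 and 0 (log2 3.09 ± 1.21, adjusted p = 0.056), and went to 1.59 (adjusted p = 0.58) without the rat 3 glomerulus library and 4.59 (0.0098) without that of rat 1. miR-300-3p had 5.62, 11.2 and 8.98 against 0 and 2.90, and miR-127-3p had 11.8, 5.48 and 103 against 9.87 and 9.01, neither past the threshold (adjusted p = 0.39 and 0.36).

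Outside these clusters, miR-672-5p, within the X-linked gene Nexmif, had 173, 113 and 59.5 against 30.7 and 0 (log2 4.33 ± 0.70, adjusted p = 3.4e-08), and without the rat 3 or rat 1 glomerulus library it was 2.05 or 6.62 with the call kept. miR-21-5p, a miRNA studied in renal injury and fibrosis, was even across proximal tubule rats at 1262, 1149 and 1278, against 409.5 and 210. It was 4.23-fold higher (log2 2.08 ± 0.55, adjusted p = 0.0016) and no single library removed the call. let-7g-5p and let-7b-5p, of the let-7 family of differentiation miRNAs, were 2 of 14 let-7/98 members called, a share near the 13.8% of all miRNAs called higher. let-7g-5p had 1313, 1176 and 1706 against 537 and 129 (log2 2.36 ± 0.54, adjusted p = 0.00019), and let-7b-5p had 1118, 1408 and 1398 against 947 and 160 (1.70 ± 0.54, adjusted p = 0.012). In rat 1 alone let-7b-5p differed by 0.24 and in rat 3 by 3.12, so its call turned on the rat 3 glomerulus library, without which it was 0.28 (adjusted p = 0.83). It also ended with the rat 2 or the rat 3 proximal tubule library left out (1.68 and 1.41, adjusted p = 0.066 and 0.15), and was 3.11 without the rat 1 glomerulus library. let-7g-5p went to 1.23 (adjusted p = 0.056) without the rat 3 glomerulus library.

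miR-107-3p, within the pantothenate kinase gene Pank1, had 311, 388 and 446 against 166 and 78.3 (log2 1.74 ± 0.60, adjusted p = 0.023). Its relative miR-103-3p, in Pank2, had 167, 217 and 276 against 102 and 44.8 and just missed the threshold (1.62 ± 0.65, adjusted p = 0.06). Leaving out the rat 3 glomerulus library ended the call of miR-107-3p (1.08, adjusted p = 0.19). So did leaving out the rat 2 or rat 3 proximal tubule library (1.71 and 1.52, adjusted p = 0.09 and 0.17) or the rat 1 thick ascending limb library (1.74, adjusted p = 0.054). Apart from the abundant miR-3557-5p, given with the antisense rows below, the remaining higher calls were of low or uneven miRNAs. miR-199a-3p, known from mesenchyme, had 91.4, 64.1 and 113 against 43.3 and 5.68 (2.65 ± 0.73, adjusted p = 0.0032). Without the rat 3 glomerulus library it was 1.35 (adjusted p = 0.19), and without the rat 3 proximal tubule library 2.18 (0.079). miR-425-5p was higher by 2.31, or 1.52 (adjusted p = 0.2) without the rat 3 glomerulus library, and missed with the rat 2 or the rat 3 proximal tubule library left out (2.37 and 1.71, adjusted p = 0.067 and 0.31). miR-339-3p was higher by 2.70, miR-218a-5p by 3.85 and miR-1249 by a bound of at least 36.4-fold. Each of these 3 lost its call without the rat 3 glomerulus library or the rat 3 proximal tubule library, and with 1 or 2 of the other proximal tubule libraries left out in turn, at adjusted p up to 0.15, 0.13 and 0.13.

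**Figure D3:**
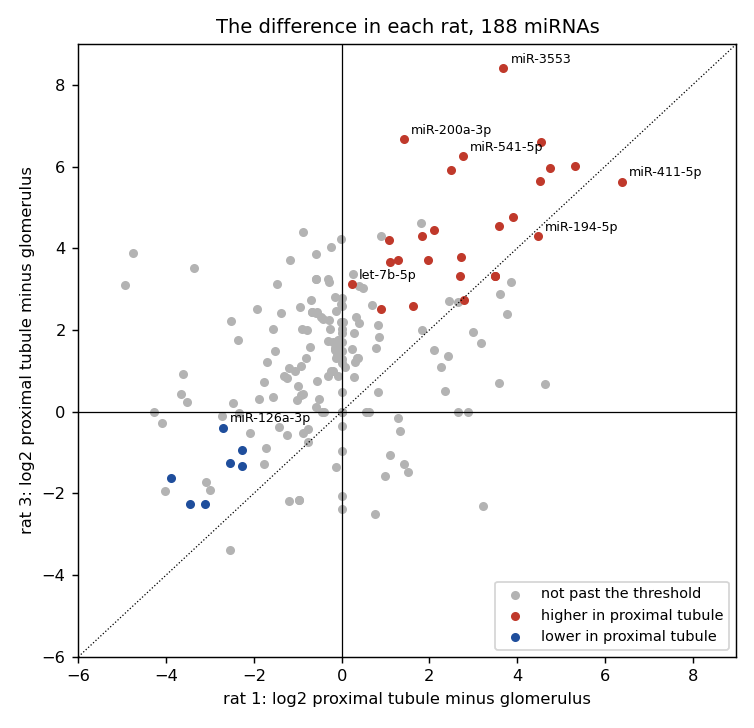
The log2 difference (proximal tubule minus glomerulus) within rat 3 against that within rat 1, for 188 miRNAs, with the dotted line marking equal differences. The rat 3 difference is larger for 21 of the 26 higher calls, and the rat 1 difference is larger in size for 7 of the 7 lower calls. All 188 miRNAs share such a shift, with a median difference of −0.07 in rat 1 and 1.54 in rat 3. The rat 1 glomerulus library lies above that of rat 3 for 138 of them.

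The 7 miRNAs lower in the proximal tubule, that is higher in the glomerulus, came from 3 lists. miR-126a, the endothelial miRNA hosted by the endothelial gene Egfl7, was called for both arms. miR-126a-5p had 1122, 1228 and 1573 in the proximal tubule against 5449 and 3997 in the glomerulus, where it ranked 7 with 4.23% ± 1.31 of the summed value (SD, n = 2). It was 3.58-fold higher in the glomerulus (log2 −1.84 ± 0.52, adjusted p = 0.0043), and of the libraries left out in turn, the rat 1 proximal tubule library ended this call (−1.61, adjusted p = 0.084). Array weights (−1.78, adjusted p = 0.058), no variance trend (−1.84, 0.066) and the replicate block in the 5 libraries of both regions alone (−1.81, 0.68) ended it too. miR-126a-3p had 128, 148 and 228 against 840 and 302, a difference of −1.61 ± 0.60 close to the threshold (adjusted p = 0.044). It was −0.82 (adjusted p = 0.23) without the rat 1 glomerulus library, and also missed with the rat 1 or rat 2 proximal tubule library, any collecting duct library or the rat 1 thick ascending limb library left out (−1.21 to −1.63, with 0.26 as the highest adjusted p). The 3 endothelial marker miRNAs with a row summed to 0.7996% to 0.866% of the value in the proximal tubule and to 3.83% and 5.55% in the glomerulus. This sum was almost wholly that of the 2 miR-126a arms. The remaining marker, miR-221-3p, had 0, 14.3 and 24.2 against 26.1 and 0.483, overlapped and did not pass (−0.10 ± 0.99, adjusted p = 0.95). It was 2.96 (adjusted p = 0.027) without the rat 1 glomerulus library and −3.16 (adjusted p = 0.021) without that of rat 3. Captured endothelium and miRNA level per cell cannot be told apart here.

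Of the miR-23/27/24 clusters, known from endothelium and smooth muscle, 3 of 7 measured members were lower in the proximal tubule, against 3.72% of all miRNAs, and 0 higher, and all 7 lay below the median of all miRNAs. miR-27b-3p was the most abundant of them, at 2726, 3194 and 3659 against 13077 and 7026, and took 8.497% ± 0.811 of the glomerulus value against 1.80% ± 0.0560. It was 2.94-fold higher in the glomerulus (log2 −1.55 ± 0.53, adjusted p = 0.022). miR-23b-3p, from the same gene, had 24.8, 57.3 and 44.7 against 375 and 132 (−2.57 ± 0.74, adjusted p = 0.0046). miR-23a-3p had 50.9, 80.9 and 81.1 against 302 and 188 (−1.84 ± 0.66, adjusted p = 0.033). miR-27a-3p had 64.0, 68.3 and 105 against 326 and 106 and did not pass (−1.10 ± 0.63, adjusted p = 0.23). The groups were separate for each of these 4, by a margin of about 1 unit for miR-27a-3p. Single libraries decided these calls. miR-27b-3p lost its call without any 1 proximal tubule library (−1.25 to −1.78, adjusted p = 0.2 at most) or the rat 1 thick ascending limb library (−1.56, adjusted p = 0.054), and miR-23b-3p without the rat 1 glomerulus (−1.73, adjusted p = 0.06) or rat 1 proximal tubule library (−2.02, adjusted p = 0.12). miR-23a-3p lost its call without any 1 of 7 libraries, which were all 3 of the proximal tubule, the rat 1 glomerulus, the rat 1 thick ascending limb and those of rats 1 and 2 from the collecting duct (−1.42 to −2.06, adjusted p = 0.19 at most).

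On chromosome X, 2 of 3 measured members of the cluster around miR-322 and miR-351 were lower in the proximal tubule. The share of all miRNAs that were lower was 3.72%. miR-351-5p, a rodent member of the miR-125 seed family, had 229, 421 and 232 against 1999 and 1117, and was 5.94-fold higher in the glomerulus (log2 −2.57 ± 0.57, adjusted p = 0.00012) with the call kept whichever library was left out. miR-450a-5p had 29.8, 49.0 and 34.9 against 334 and 170, and was 6.28-fold higher (−2.65 ± 0.76, adjusted p = 0.0046). Its call was lost without the rat 1 glomerulus library (−1.75, adjusted p = 0.07) or the rat 3 proximal tubule library (−2.42, adjusted p = 0.054). miR-322-5p had 0.713, 6.48 and 6.36 against 25.6 and 5.66, so that the ranges of these means overlapped, and did not pass (log2 −1.75 ± 1.14, adjusted p = 0.31). Both called members were also higher in the glomerulus than in the other tubules, which share the glomerulus libraries and gave 21 (11.2%) and 28 calls (14.9%) of 188. The thick ascending limb minus glomerulus was −3.24 for miR-351-5p and −3.02 for miR-450a-5p (adjusted p = 7.2e-07 and 0.0011), and the collecting duct minus glomerulus −2.90 and −2.24 (adjusted p = 9.3e-06 and 0.024).

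The top 5 miRNAs held 62.8% ± 0.287 of the proximal tubule value (SD, n = 3) and 60.9% ± 0.466 of the glomerulus value (SD, n = 2). Of the top 10, 6 were in both regions. Only in that of the proximal tubule were let-7f-5p, miR-182, miR-192-5p and miR-3557-5p, all but let-7f-5p called higher. Only in that of the glomerulus were miR-125a-5p, miR-126a-5p, miR-27b-3p and miR-30a-5p. Of these, miR-126a-5p and miR-27b-3p were called lower in the proximal tubule. Over all miRNAs, 17.6% were called. The leading shared miRNAs, given next, did not pass. miR-10a-5p, from a Hox gene cluster, led both with 37746, 39998 and 56750 against 37565 and 14049 (log2 0.97 ± 0.58, adjusted p = 0.26). miR-22-3p followed at 20926, 22602 and 34116 against 21757 and 11218 (0.75 ± 0.55, adjusted p = 0.37). Both differences lay near the median of all miRNAs, and that of miR-22-3p fell to −0.32 under quantiles. miR-191a-5p had 7199, 11786 and 10091 against 5908 and 2693 (1.13 ± 0.53, adjusted p = 0.13). miR-26a-5p had 7011, 8202 and 10564 against 12322 and 4295, with the glomerulus libraries on either side of the proximal tubule (0.26 ± 0.53, adjusted p = 0.77).

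Several further miRNAs lay above every proximal tubule library in the glomerulus without passing on the deposited scale. miR-143-3p, a miRNA of smooth muscle and mesangial cells, had 6093, 7597 and 7992 against 16324 and 10321, which is 4.08% ± 0.289 of the proximal tubule value and 11.6% ± 2.43 of the glomerulus value. Its log2 difference was −0.84 ± 0.53 (adjusted p = 0.29). After scaling by the median of ratios, the same total or quantiles it was −1.51, −1.49 and −0.91 and passed each time (adjusted p = 0.00013, 8.6e-05 and 0.0014). Its cluster partner miR-145-5p had 26.5, 17.8 and 41.8 against 64.0 and 60.9 (−1.29 ± 0.90, adjusted p = 0.35). Under the same 3 scalings miR-145-5p was −1.95, −1.93 and −2.03 and missed each time (adjusted p = 0.076, 0.075 and 0.081). miR-149-5p, within Gpc1, had 16.8, 4.65 and 22.2 against 149 and 73.7 (−2.24 ± 1.11, adjusted p = 0.15). miR-138-5p had 4.67, 2.42 and 3.34 against 31.7 and 38.2 (−2.73 ± 1.24, adjusted p = 0.11). miR-30a-5p, of the miR-30 family linked to podocyte maintenance, had 2493, 3177 and 3618 against 4558 and 5195 (−0.66 ± 0.52, adjusted p = 0.4). For these 3 and for miR-27a-3p the difference passed under each of the other 3 scalings, with adjusted p of 0.034 or less for miR-138-5p, 0.017 for miR-149-5p, 0.024 for miR-30a-5p and 0.0046 for miR-27a-3p. The absence of a call on the deposited scale thus does not show equal levels. miR-204-5p, known as an epithelial miRNA of the kidney, had 20.3, 61.4 and 111 against 61.0 and 26.6 and overlapped (0.14 ± 0.85, adjusted p = 0.93), with a negative sign under each of the other 3 scalings.

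The summed values of the marker miRNAs of proximal tubule, epithelium and smooth muscle separated the captures. Some sums were almost wholly those of a single miRNA. These were miR-192-5p for the proximal tubule, miR-375-3p for the neural and neuroendocrine markers, and miR-143-3p, which was not called, for smooth muscle. miR-192-5p and miR-194-5p summed to 10.02% to 15.2% of the value in the proximal tubule and to 0.863% and 1.00% in the glomerulus. The 4 epithelial miR-200 markers with a row made 0.247% to 0.338% and 0.0775% and 0.0466%, and the 2 smooth muscle and mesangial markers 3.81% to 4.38% and 9.93% and 13.4%. The 2 mesenchyme markers with a row were both arms of miR-199a. Their sum went the other way from smooth muscle, at 0.0441% to 0.0682% against 0.0438% and 0.0168%. Of the arms only miR-199a-3p was higher, with means of 89.5 against 24.5. miR-199a-5p had means of 13.4 against 18.2 and did not pass in the limma fit (log2 −0.11, adjusted p = 0.95). The 2 neural and neuroendocrine markers with a row made 0.292% to 0.675% and 0.0101% and 0.0283%. The 3 blood cell markers with a row, of 9 listed, overlapped at 0.695% to 0.822% and 0.877% and 0.738%, and the defining red cell miRNA miR-451 had no row. No marker of skeletal muscle or liver had a row. The smooth muscle and mesangial markers were thus present in every proximal tubule library and the proximal tubule markers in every glomerulus library. The part of cells or RNA of the other region in these levels was not tested.

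Of the 10 lists with at least 5 measured members, 4 had calls, given above (miR-200, miR-23/27/24, Dlk1-Dio3 and let-7/98). Among the other 6, none of the 9 of miR-30, 7 of miR-10 and miR-196, 9 of miR-99, miR-100 and miR-125, 10 of the miR-17/92 paralogs, 6 of miR-181 or 5 of miR-15 and miR-16 passed, against 17.6% of all miRNAs. The median log2 difference was −0.22 for the miR-30 list and −0.33 for the miR-181 list, below the 0.77 of all miRNAs, and 0.76 for miR-10 and miR-196, 0.78 for miR-99, miR-100 and miR-125 and 0.80 for let-7/98, close to it. Seeds were known for the 172 miRNAs with a sequence. Summing the values of those with the same seed gave 22 seed families of at least 2 miRNAs, of which 3 (13.6%) differed. The 16 miRNAs without a sequence entered no family, among them miR-200a-3p, miR-200b-3p, miR-429, miR-30d-5p and miR-99a-5p. Sums over the miR-200 seeds were therefore not tested. The miR-23 seed UCACAUU summed to 75.7, 138 and 126 in the proximal tubule against 676 and 320 in the glomerulus, 4.49-fold higher there (log2 −2.17 ± 0.55, adjusted p = 0.0036). The miR-27 seed UCACAGU summed to 2790, 3262 and 3764 against 13404 and 7132 (−1.54 ± 0.53, adjusted p = 0.035). The seed of miR-103 and miR-107, GCAGCAU, summed to 479, 605 and 722 against 269 and 123, 3.23-fold higher in the proximal tubule (1.69 ± 0.51, adjusted p = 0.014). The 9 let-7 members with the seed GAGGUAG gave 1.10 ± 0.56 (adjusted p = 0.2), and 2.31 (adjusted p = 0.000123) with the rat 1 glomerulus library left out but −0.12 (0.943) with that of rat 3 left out. None of the 3 calls held with every library left out in turn. The miR-23 seed gave −1.75 (adjusted p = 0.0808) without the rat 1 proximal tubule library. The seed of miR-103 and miR-107 gave 0.99 (adjusted p = 0.225) without the rat 3 glomerulus library, and missed without the rat 2 or rat 3 proximal tubule or rat 1 thick ascending limb library. The miR-27 seed missed without any library except the rat 3 glomerulus and the rat 2 and rat 3 thick ascending limb, with adjusted p up to 0.253.

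The ratio of the arms of 1 hairpin sets 2 rows of the same library against each other. Of 30 hairpins with both arms measured, limma called 0 (0%), and 3 were at an unadjusted p below 0.05. The log2 ratio of the 5p to the 3p arm of miR-199a was −3.12, −2.21 and −2.79 in the proximal tubule and −0.54 and −0.08 in the glomerulus (difference −2.76 ± 0.66, adjusted p = 0.095). That of miR-30e was −0.02, −0.57 and −0.49 against 1.53 and 1.502 (−1.82 ± 0.51, adjusted p = 0.11). For miR-200b it was −5.71, −4.80 and −8.26 against −3.47 and −3.96 (−2.69 ± 0.97, adjusted p = 0.25). The miR-199a difference was −0.66 on flow cell D alone (adjusted p = 0.887), and that of miR-200b −1.52 (0.716) with the rat 3 proximal tubule library left out. The regions did not overlap for 8 of the 30 hairpins (26.7%), with the 3p arm favoured more in the proximal tubule for 5 of them and the 5p arm for 3, let-7b, miR-27b and miR-181c. With a pseudocount of 10 in place of 1, 4 hairpins passed, and the difference of miR-3557 went from −0.27 to 2.02 (adjusted p = 0.0107).

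Several called rows could not be assigned to 1 strand of the genome. In the rat some miRNA genes lie on opposite strands of the same locus, so that 1 mature sequence is the reverse complement of another. Among the 188 rows, 28 had such an antisense partner, 7 of them called, where 17.6% of all rows were called. In 4 pairs of rows the values were identical in 44 of 44 runs, and all 4 pairs were antisense at 1 locus: let-7a-5p with miR-3596a, miR-181a-1-3p with miR-3570, miR-210-3p with miR-3574, and miR-3557-3p with miR-378a-5p. The pair miR-210-3p and miR-3574 is printed as an example, in lower case throughout because the whole run of bases is complementary.
miR-210-3p: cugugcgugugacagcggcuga
miR-3574: ucagccgcugucacacgcacag

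Of these identical rows, miR-3557-3p and miR-378a-5p were both called, with the same values of 10.9, 6.80 and 9.90 against 0 and 0, so that they are 1 measurement and the calls number 32 when it is counted once. With 1 row kept of each identical pair, the calls were 31 of 184, because this measurement, at an adjusted p of 0.047, then missed (adjusted p = 0.051). It was also lost without any 1 proximal tubule or thick ascending limb library, the rat 3 glomerulus library or the rat 1 one of collecting duct (2.80 to 3.40, adjusted p = 0.19 at most). The other 2 pairs with both rows were not identical. miR-125b-5p and miR-3588 stood in a ratio of 0.689 to 1.38 and were equal in 0 of 44 runs, and miR-130a-3p had a mean of 204 over all runs against 4.64 for miR-3590-5p.

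**Figure D4:**
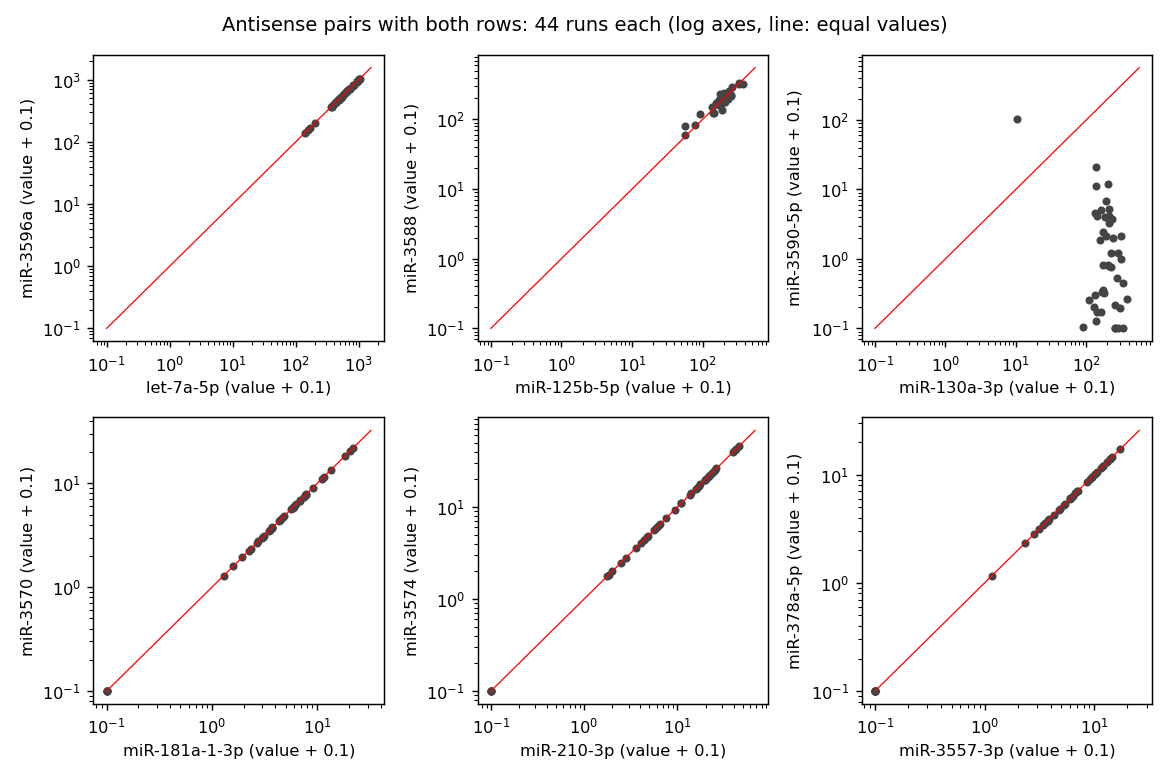
Value + 0.1 of both rows of the 6 antisense pairs that have 2 rows, 1 point per run over 44 runs, log axes, with the line of equal values. Points lie on the line in 4 pairs, scatter around it for miR-125b-5p and miR-3588, and lie mostly below it for miR-130a-3p and miR-3590-5p.

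A further 16 rows had an antisense partner without a row, and in 16 of 16 the row carried the longer of the sequences. miR-3553, with the largest fitted log2 difference of the comparison, was one of these: 22 of its 23 bases are the reverse complement of miR-183-5p, the cluster neighbour of miR-182, which had no row. miR-203b-3p likewise pairs over 20 bases with miR-203a-5p, from the other strand. The uncalled miR-409b of the Dlk1-Dio3 region pairs over 20 bases with miR-409a-3p. The called rows miR-203a-3p, miR-218a-5p and miR-3557-5p had partners of the same kind, miR-203b-5p, miR-218b and miR-378a-3p. The last of these rows was abundant, at 5891, 7476 and 7887 in the proximal tubule against 1484 and 600 in the glomerulus, 7.68-fold higher (log2 2.94 ± 0.52, adjusted p = 5.6e-07). For all of these rows the difference between regions was measured, but the strand of the reads, and so the miRNA that carries it, cannot be told apart from these values. The partners of 2 of them are printed for comparison with the sequences given at the start.
miR-183-5p: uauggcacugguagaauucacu
miR-203a-5p: agugguucuuaacaguucaac

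**Figure D5:**
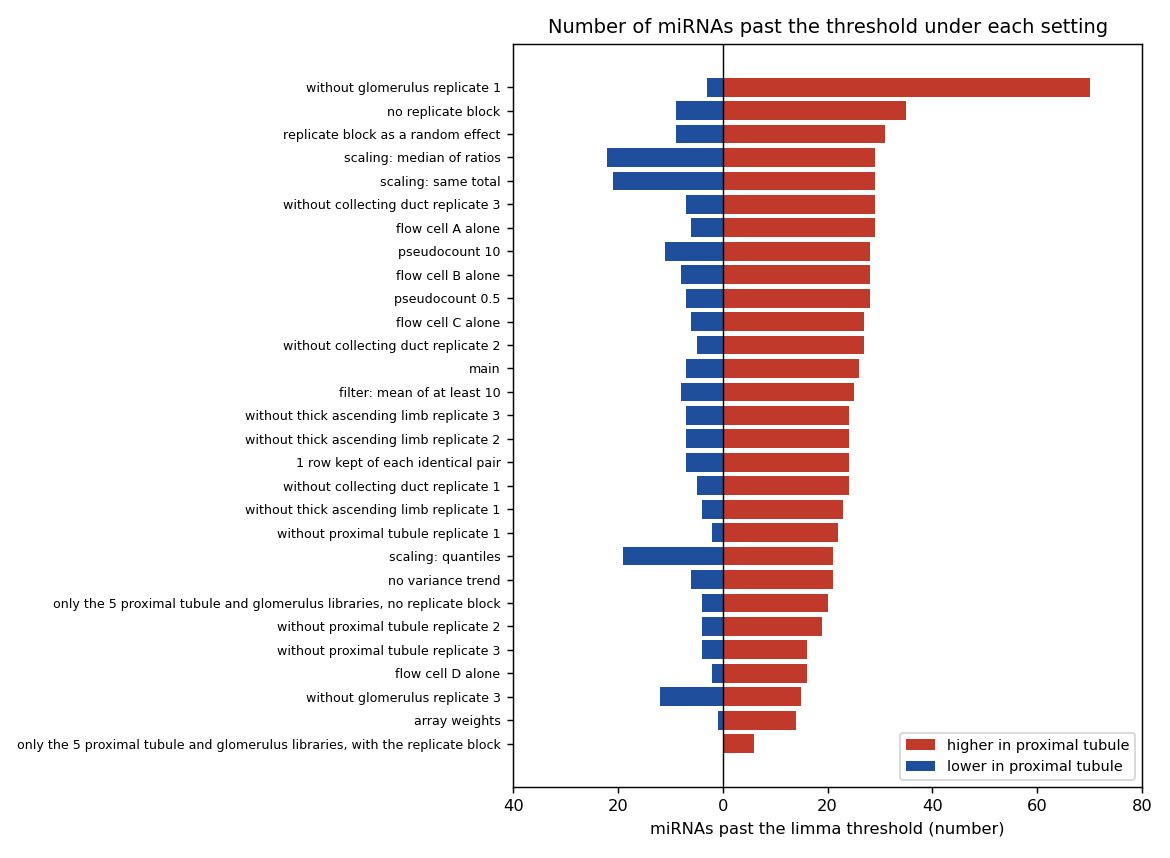
Number of miRNAs past the limma threshold under the fit as reported (main) and 28 alternative settings, with higher calls to the right and lower calls to the left of 0. Higher calls range from 6 to 70 and lower calls from 0 to 22.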

How the data were processed

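Per the labels' protocols, laser-captured RNA was made into TruSeq small RNA libraries and read on a HiSeq2000. The deposited values are a signal made by the authors, counts normalized by TMM with low miRNAs filtered out, per the name of their file. The submitters' processing notes list Partek 6.0, Bowtie2 2.2.5, Bowtie 1.0.0 and build rn6, and how strands were counted is not given in the sources used here. Low values lay on steps of 1 read, whole within 0.03 reads for 88.3% to 99.0% of values up to 30 reads, so no count test was run and the reads printed are estimates.

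Values were averaged over 4 flow cells as log2(value + 1). A fold on this scale understates low miRNAs. limma 3.58.1 (R 4.3.3) fitted region and rat (block) to all 11 libraries, with a variance trend, two-sided tests and Benjamini-Hochberg adjustment over 188 miRNAs at 0.05. The prior made miRNAs of like level share 1 variance. Seed families and arm ratios (without a trend) were fitted alike. A check on simulated data covered the miRNA fit only, with the same spread in every region and no rat effect. The block is there because regions of 1 rat come from the same animal, taken as labelled. Deviations from region means had a median correlation of 0.032 over 15 same-rat pairs and −0.014 over 30 others.

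Named are the 10 largest called differences each way, the 5 most abundant miRNAs per region, list members that passed with 1 or 2 that did not, and other called miRNAs. miRNAs, lists and comparison were chosen with earlier results of these data known. Alternatives covered block, libraries, trend, weights, pseudocount, filter, scaling, flow cell and libraries left out.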

Additional observations from a re-analysis of the deposited data

How the results depend on the processing

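The 5 libraries of the 2 regions leave 1 residual degree of freedom with the replicate block, and 6 miRNAs passed there, 24 without the block. Over all 11 libraries, no replicate block gave 44 calls (35 higher, 9 lower) and the rat as a random effect 40. Array weights gave 15, with a weight of 0.248 for both glomerulus libraries. Median of ratios gave 51 and the same total 50, flow cell D alone 18, and the cause was not tested. Leaving out 1 library gave 20 to 73. miR-182, miR-203a-3p, miR-375-3p and miR-3553 passed in all 28 alternatives, and another 7 in all but fits on 5 libraries: miR-192-5p, miR-194-5p, miR-200b-3p, miR-351-5p, miR-3557-5p, miR-429 and miR-672-5p. Seed families went from 3 to 0 in the 5 libraries with the replicate block (limma, 2 at an unadjusted p below 0.05), 1 with no variance trend, 9 by median of ratios, 9 by the same total, 7 by quantiles, 1 on flow cell D, 1 without the rat 1 thick ascending limb and 1 to 10 with 1 library of the compared regions left out. Arm ratios went from 0 to 1 with no replicate block, 1 with the rat as a random effect, 4 with a pseudocount of 10 and 1 on flow cell B, and stayed at 0 (limma, 3 to 8 at an unadjusted p below 0.05) with each library of both regions left out. With 1 glomerulus library left, it was assumed to vary like the other groups. Among the uncalled miRNAs named in the text, signs changed for 5. miR-22-3p was −0.32 by quantiles. miR-26a-5p was −0.41 by median of ratios, −0.39 by the same total, and −0.66 to 1.17 over the libraries left out, −0.04 without the rat 3 proximal tubule library. miR-204-5p was −0.51, −0.49 and −0.64 by median of ratios, same total and quantiles, −0.080 on flow cell D, and −0.74 and −0.87 without the same 2 libraries, with −0.87 to 1.16 over the libraries left out. miR-300-3p was −0.69 on flow cell D. miR-221-3p was 0.16 with no replicate block (11 or 5 libraries), 0.34 with the rat as a random effect, 0.26 with array weights, 0.72 on flow cell B, and −3.16 to 2.96 over the libraries left out, 1.78 without the rat 1 proximal tubule library. The glomerulus library of rat 3 had the fewest estimated reads, 147996, and 51 miRNAs at 0, and 22 of 188 were at 0 in both glomerulus libraries. The part of depth in these zeros was not tested.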
